A study of Rattus norvegicus with 4 samples.

Results

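EPA-supplemented cardiomyocytes were compared with unsupplemented control cardiomyocytes on 2 dye-swapped arrays, which are 2 of the 4 arrays of the series. They were taken by their titles, which name EPA, and the 2 arrays of cells given docosahexaenoic acid were not used here. The EPA group was a primary culture of ventricular cells from newborn Wistar rats, grown in HAM F10 medium with 60 µM eicosapentaenoic acid (EPA) added. The medium held 10% serum of fetal calf and, besides, 10% of horse. The control group was the same kind of culture in the same serum-rich medium without the fatty acid, so both groups received the lipids of serum. Medium was renewed every 48 h and both cultures were harvested at confluence; the labels give no other exposure time and name no vehicle. RNA of each culture was amplified, labelled with Cy5 or Cy3 and hybridised in pairs to a rat oligonucleotide array of Agilent. The EPA cells were in Cy5 on array 1 and in Cy3 on array 2.

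A dye swap repeats 1 comparison with the dyes exchanged, and whether both arrays held the same RNA extracts is not said. The arrays were therefore treated as 1 EPA sample against 1 control sample, without a replicate check and without a test. Each value below is a log2 ratio of EPA over control, given for array 1 and array 2 or as the mean of the swap ± the difference between that mean and either array. The size rule asked for a stated fold in the same direction on both arrays. It leaves out values that follow the dye only if the table runs EPA over control. If the table ran Cy5 over Cy3, the genes counted here would be those that follow the dye. The direction is assumed here and not stated. The titles of both arrays name the EPA cells, which does not fix the numerator of the ratio. The earlier work that settled on this reading had genes of fatty acid oxidation in view, so the side on which those genes lie is not independent evidence. As read here, 22% of all named genes lay above control on both arrays and 22.9% below. Read as Cy5 over Cy3, more genes would share a side, 26.8% above and 28.3% below. The base of the logarithm is not stated either: in base 10 the fold for Cpt1b would be 8.07 instead of 1.87. Ventricular cultures of this kind hold cardiomyocytes together with fibroblasts, vascular cells and macrophages. Because the table holds ratios and no levels, the markers of these cells could show a shift between the groups but not whether the cells were present.

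Heart muscle draws most of its energy from long-chain fatty acids. These enter mitochondria as carnitine esters, made at the outer membrane by carnitine palmitoyltransferase 1, and are then shortened by the repeating steps of beta-oxidation, with auxiliary isomerases and a reductase for the double bonds of unsaturated acids such as EPA. Fatty acids that are not burned are stored as triglyceride in lipid droplets. Long-chain fatty acids are also ligands of the peroxisome proliferator-activated receptors (PPARs), nuclear receptors whose targets include many genes of fatty acid oxidation and storage.

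The table held 22575 features, of which 20500 had a value on both EPA arrays, and 12750 of these could be named, giving 9653 genes. Both arrays were narrow, with an interquartile range of 0.26 on array 1 and 0.22 on array 2. Across probes the arrays were weakly and negatively related (Pearson's r = -0.11, across 20500 probes that share labelling and position, not a test), so most of what a single array showed was not repeated by its swap. The median gap between a gene's swap mean and either array was 0.092, against a median size of the swap mean of 0.078. Ratios also depended on position. Read in bands of 5 columns of a grid inferred from the order of features (215 columns by 105 rows), the band median on array 1 spanned -0.07 to 0.28, with the top at the left, and on array 2 it spanned -0.06 to 0.12. Values with a local median on that grid removed are given for genes whose call this changed, for the lists it moved most and for some other genes. Many of the differences below are no larger than these shifts.

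**Figure D1:**
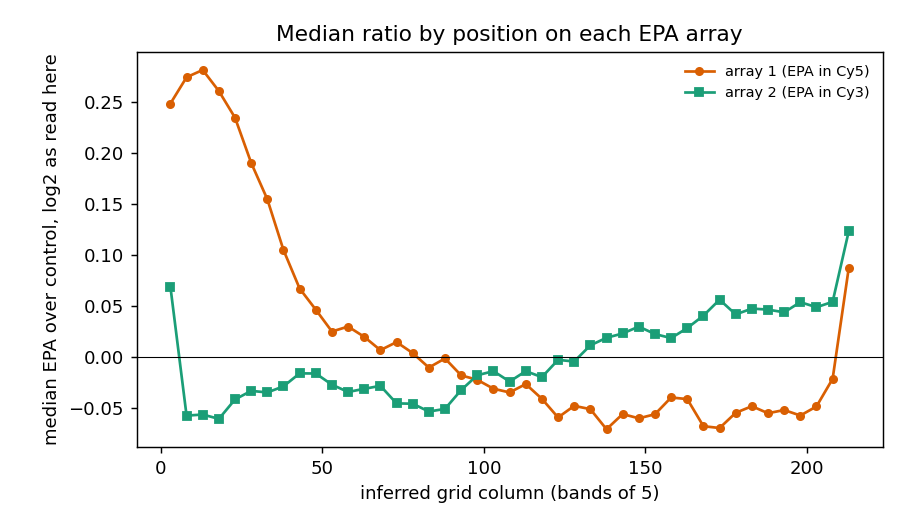
Median log2 ratio of EPA over control (vertical axis) against the inferred grid column (horizontal axis, bands of 5 columns) for array 1, with EPA in Cy5 (circles), and array 2, with EPA in Cy3 (squares). Array 1 reaches 0.28 near its left side and lies below 0 over most of its right side, while array 2 stays between -0.06 and 0.12.

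At 1.5-fold on both arrays, 3 of 9653 genes (0.0311%) were higher with EPA and 0 (0%) were lower. All 3 bear on the handling of lipids: Cpt1b, the muscle form of carnitine palmitoyltransferase 1, Hilpda, a small protein of lipid droplets that inhibits their main triglyceride lipase, and Dhrs3, a reductase that returns retinal to retinol. Cpt1b stood at 0.93 on array 1 and 0.88 on array 2, a mean of 0.91 ± 0.02 or 1.87-fold. It was the second highest of all 9653 genes by swap mean, and its arrays differed by less than the median gene's. Read as Cy5 over Cy3, which turns the sign of array 2, its swap mean would be 0.023. Dhrs3 stood at 0.73 on array 1 and 0.69 on array 2 (0.71 ± 0.02, 1.64-fold). Hilpda stood at 0.75 on array 1 and 0.59 on array 2 (0.67 ± 0.08, 1.59-fold). Its value on array 2 lay just above the threshold of 0.585, and it was the gene nearest to losing its place. Just outside were Slc38a4, a carrier of neutral amino acids, at 0.89 and 0.56, and Hils1, a linker histone of spermatids, at 0.70 and 0.54. With the local median removed Slc38a4 passed, at 0.68 and 0.62, and the count became 4. On the lower side the nearest to the threshold was Ccl2, a chemokine that recruits monocytes, at -0.77 and -0.57. Its array 1 value is shared by 30 probes and is uncertain, as described below.

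**Figure D2:**
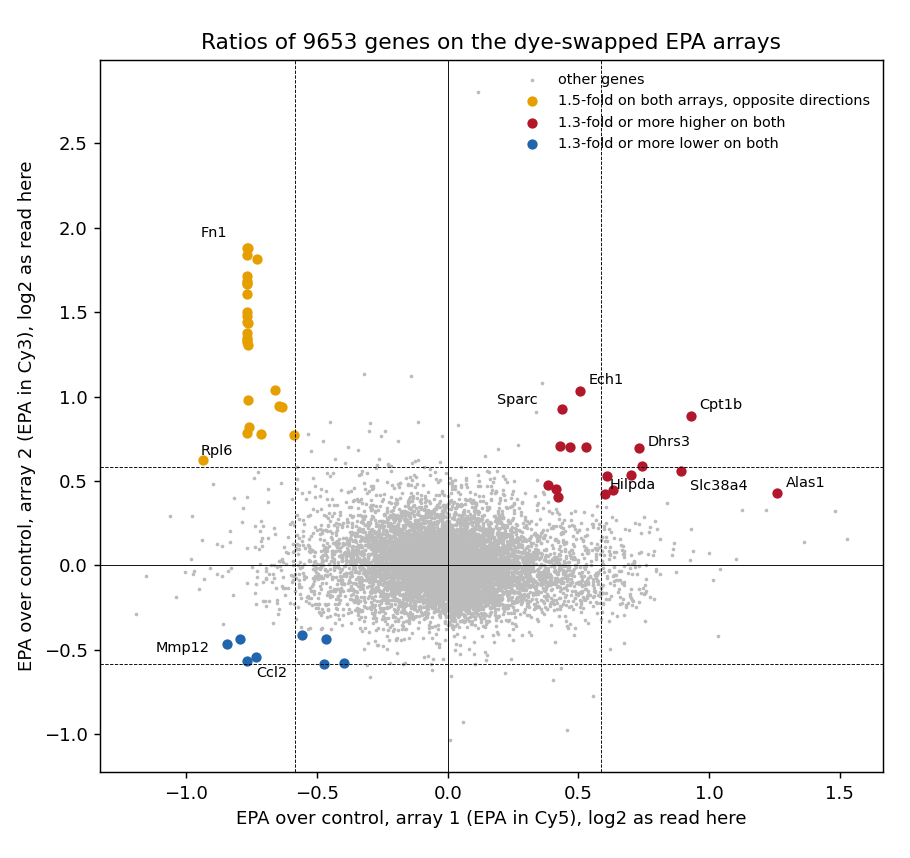
Log2 ratio of EPA over control on array 1 (horizontal axis) against array 2 (vertical axis) for each of 9653 genes. Dashed lines mark 1.5-fold. Cpt1b, Dhrs3 and Hilpda are the 3 genes in the upper right corner beyond both lines, the lower left corner beyond both lines is empty, and 27 genes lie in the upper left, below control on array 1 and above it on array 2.

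The stretches upstream of Hilpda and Dhrs3, and of Plin2, the other lipid droplet gene described below, are shown so that the letters behind the motif counts can be read. Each is the 250 bases before the annotated start in RefSeq, build GRCr8, written 5′ to 3′ on the strand of the gene. Capitals mark ACGTG and GCGTG, the core letters of the hypoxia response element, on either strand; CACGTG in Plin2 is a match on both.
Hilpda, chr4:58836213-58836462, plus strand: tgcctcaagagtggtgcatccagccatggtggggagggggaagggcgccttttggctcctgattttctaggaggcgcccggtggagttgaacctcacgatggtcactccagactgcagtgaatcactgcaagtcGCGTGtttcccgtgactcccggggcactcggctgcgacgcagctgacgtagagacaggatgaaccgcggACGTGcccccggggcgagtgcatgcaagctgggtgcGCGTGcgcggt
Plin2, chr5:106229019-106229268, minus strand: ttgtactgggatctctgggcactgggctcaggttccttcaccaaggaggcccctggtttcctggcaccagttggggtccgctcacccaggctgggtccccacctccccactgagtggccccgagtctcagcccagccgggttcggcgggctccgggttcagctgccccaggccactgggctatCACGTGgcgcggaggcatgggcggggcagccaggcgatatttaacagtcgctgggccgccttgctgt
Dhrs3, chr5:162031603-162031852, plus strand: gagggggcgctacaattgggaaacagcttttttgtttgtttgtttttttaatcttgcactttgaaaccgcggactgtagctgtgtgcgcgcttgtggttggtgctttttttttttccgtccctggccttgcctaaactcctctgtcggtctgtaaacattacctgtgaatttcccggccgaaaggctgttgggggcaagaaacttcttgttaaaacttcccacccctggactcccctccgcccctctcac

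Hilpda is known as a hypoxia-inducible gene as well as a PPAR target. Its stretch held ACGTG at -47 and GCGTG at -116 and -11, counted from the annotated start, while that of Plin2 held CACGTG at -67 to -62 and that of Dhrs3 held neither. Of the 27457 upstream stretches in the table, 16.9% held ACGTG and 27.2% held GCGTG. Of 21 genes found there, among the 25 genes past 1.3-fold with Cpt1a and Plin2, 7 held ACGTG and 6 held GCGTG. The direct repeat that PPARs bind (AGGNCA, a spacer of 1 base, AGGNCA) was searched on both strands, and 0.353% of all stretches held it. Of the 21 genes only Ceacam4 did, at -203 to -191. Cpt1b, Ech1, Ccl2, Hsd11b1, Kdelr2 and Tgm2 had no stretch there, so no motif was searched for them. The repeat of retinoic acid receptors (AGGTCA, a spacer of 5 bases, AGGTCA; 0.0109% of stretches) and the amino acid response word TGATGNAA (3.27%) were in 0 of the 21. These matches describe letters and show no binding.

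Fatty acid oxidation had the largest share of genes on the EPA side among the 33 lists described. The lists were chosen with earlier results of these data known, so this rank is not independent evidence. Of 28 listed genes of the carnitine shuttle and mitochondrial beta-oxidation 25 were measured, and 16 of them (64.0%) lay above control on both arrays, where 22% of all 9653 genes did. Only Echs1, the short-chain enoyl-CoA hydratase, lay below on both, at -0.18 and -0.08, where 22.9% of all genes did. The list's median swap mean was 0.18, against -0.0012 over all genes. It rested mostly on array 2, where the median was 0.22 against 0.039 on array 1, and 7 members were below control on array 1 and above on array 2. With the local median removed, 19 of the 25 lay above on both arrays, with a median of 0.15. All of this rests on the assumed direction. Read as Cy5 over Cy3 the list would have 1 member above on both arrays and 7 below, with a median of -0.063. Over all genes 26.8% would then be above and 28.3% below. The 1.5-fold rule was met by 1 member and the 1.3-fold rule by 2.

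Among the genes of carnitine entry, 8 of 9 lay above control on both arrays. Cpt1a, the form of carnitine palmitoyltransferase 1 that predominates in liver and in the newborn heart, stood at 0.36 on array 1 and 1.08 on array 2 (0.72 ± 0.36). Its ratio exceeded that of Cpt1b on array 2 but missed 1.3-fold on array 1, and met that rule at 0.45 and 0.98 once the local median was removed. The other enzymes of the shuttle were closer to control. Cpt2, the inner membrane enzyme that releases the acyl group from carnitine, stood at 0.16 and 0.10, and Slc25a20, the carrier that exchanges acylcarnitine for carnitine, at 0.0032 and 0.056. Crat, carnitine acetyltransferase, was above control mainly on array 1, at 0.45 and 0.025. Slc22a5, which brings carnitine into the cell, stood at 0.20 and 0.30, and Mlycd, which degrades the malonyl-CoA that inhibits carnitine palmitoyltransferase 1, at 0.11 and 0.24. Crot, the peroxisomal octanoyltransferase, was the member with opposite signs, at -0.10 and 0.17.

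The enzymes of the beta-oxidation spiral were less even between the arrays, and 3 of 9 lay above control on both. Acaa2, the thiolase of the matrix, stood at 0.27 on array 1 and 0.995 on array 2, and Acadl, the long-chain acyl-CoA dehydrogenase, at 0.039 and 0.83. Both were 1.5-fold higher on array 2 alone. Hadha and Hadhb, the subunits of the trifunctional protein of the inner membrane, had that same lean, with Hadha at -0.022 and 0.77 and Hadhb at -0.27 and 0.51, so neither can be placed on one side. Acadvl, the dehydrogenase of very-long-chain acyl-CoA, was the most even of the spiral genes above control, at 0.18 and 0.29. Acads, the short-chain dehydrogenase, ran the other way, at 0.46 on array 1 and -0.0067 on array 2, and the medium-chain gene Acadm stood at -0.029 and 0.098.

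Of the 3 auxiliary enzymes that handle double bonds 2 lay above control on both arrays. Ech1, a dienoyl-CoA isomerase, stood at 0.51 on array 1 and 1.03 on array 2 (0.77 ± 0.26, 1.70-fold), the seventh highest swap mean of all genes, and passed 1.3-fold on both. Decr1, the mitochondrial dienoyl-CoA reductase, stood at 0.19 and 0.43, while Eci2, an enoyl-CoA isomerase, stood at -0.021 and 0.20. Of the genes that pass electrons from the dehydrogenases to the respiratory chain, Etfb had nearly equal values of 0.22 and 0.22, while Etfa stood at -0.013 and 0.11 and Etfdh at 0.017 and 0.10. Of 35 measured members of the respiratory chain and the citrate cycle 5 lay above control on both arrays and 5 below, or 8 above and 5 below with the local median removed. Peroxisomal and microsomal oxidation did not lean either, with 4 of 17 above and 2 below and a highest swap mean of 0.15.

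**Figure D3:**
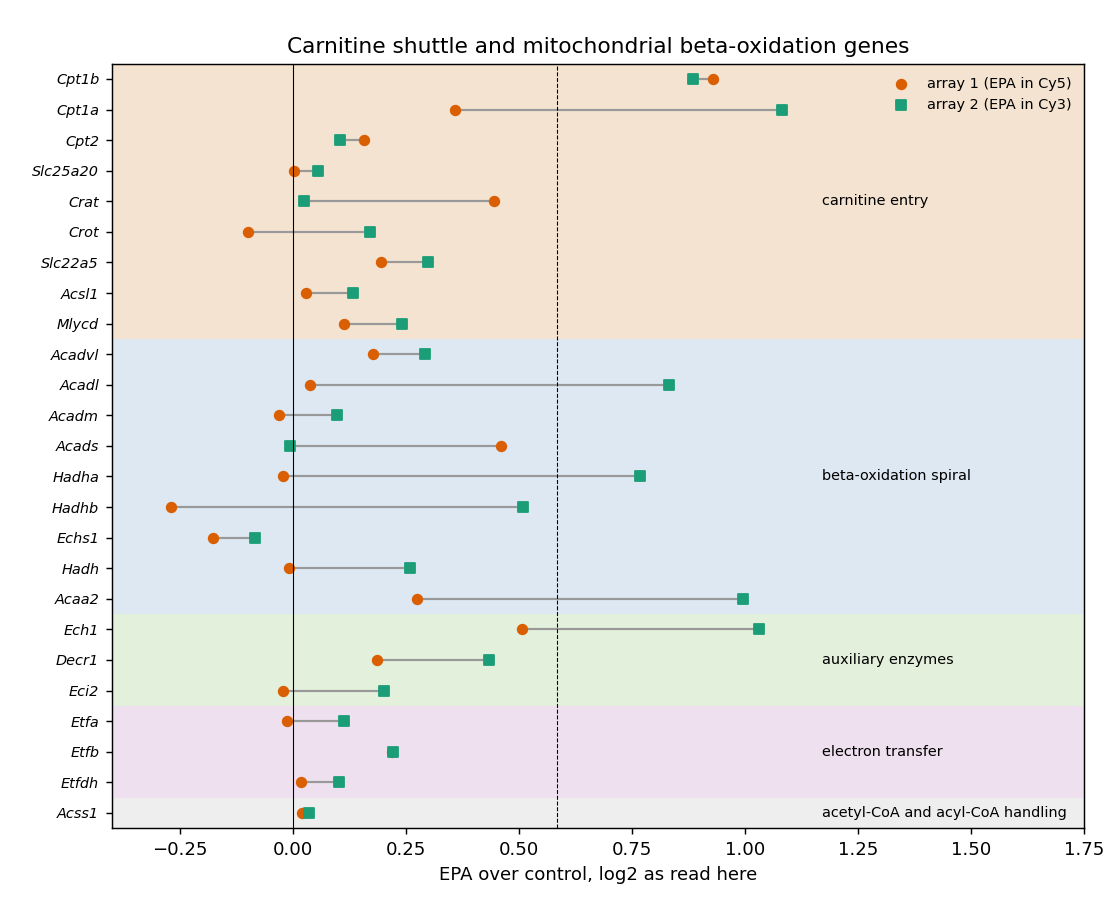
Log2 ratio of EPA over control (horizontal axis) for the 25 measured genes of the carnitine shuttle and mitochondrial beta-oxidation, grouped by role, on array 1 (circles) and array 2 (squares); the line between them spans the swap and the dashed line marks 1.5-fold. Only Cpt1b has both marks beyond 1.5-fold, and Acadl, Hadha, Acaa2, Cpt1a and Ech1 pass it on array 2 alone.

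Storage of fatty acids showed a pair of genes above control and little else. Besides Hilpda, Plin2, the coat protein of lipid droplets, stood at 0.27 on array 1 and 0.72 on array 2 (0.49 ± 0.22). Its probes disagreed on array 1, with 0.56 and 0.74 for one and -0.023 and 0.69 for the other. Of 19 measured genes of lipid droplets, triglyceride synthesis and lipolysis, 3 lay above control on both arrays and 2 below, with a median of 0.017, and with the local median removed 7 were above and 3 below. The third above was Dgat1, an enzyme of the last step of triglyceride synthesis, at 0.16 and 0.0056. Abhd5, the coactivator of the lipase that Hilpda inhibits, was the lowest member, at -0.32 and -0.19, and Mgll, monoglyceride lipase, stood at -0.054 and -0.17. Lipe, hormone-sensitive lipase, had opposite signs, at -0.035 and 0.29.

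The PPAR-responsive genes are a list that shares Cpt1a, Cpt1b, Mlycd and Slc25a20 with the oxidation list and Hilpda and Plin2 with the droplet list. Of its 23 measured members 11 lay above control on both arrays and 3 below, with a median of 0.042, where 22% of all genes lay above and 22.9% below. Read as Cy5 over Cy3 the counts would be 4 above and 5 below, with a median of -0.026. The genes shared with the oxidation and droplet lists are all among the 11 above, so this share is not separate from theirs. Outside those lists, Ucp3, Fabp3, Acot1, Txnip and Gk lay above. Ucp3, a carrier of the inner mitochondrial membrane in muscle, stood at 0.19 and 0.56 (0.37 ± 0.18), and Fabp3, the heart's own fatty acid carrier in the cytosol, at 0.39 and 0.24. Other well-known targets lay closer to control or had opposite signs. Pdk4, the kinase that restrains pyruvate oxidation, stood at -0.12 and 0.075, Acot1, an acyl-CoA thioesterase, at 0.15 and 0.072, and Cat, catalase, at -0.46 and 0.55. Vnn1, pantetheinase, was the lowest member, at -0.87 on array 1 and -0.063 on array 2. The receptors stayed near control, with Ppara at 0.077 and -0.14, Ppard at -0.0056 and -0.11 and Pparg at 0.072 and 0.066. No probe carried the names Angptl4 or Scd.

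Genes that bring fatty acids into the cell and activate them did not lean as a group, with 4 of 20 measured above control on both arrays and 2 below. Besides Fabp3, those above were Dbi, an acyl-CoA binding protein, at 0.35 and 0.17, Slc27a1, a fatty acid transport protein, at 0.17 and 0.18, and Lpl, lipoprotein lipase, at 0.053 and 0.010. With the local median removed Slc27a1 and Lpl had opposite signs. Cd36, the main fatty acid receptor of heart, stood at -0.25 and 0.13. Fatty acid synthesis, elongation and desaturation had 3 of 20 above and 6 below. Fads1, the desaturase that makes EPA and arachidonic acid from their precursors, stood at -0.26 on array 1 and -0.27 on array 2 (-0.26 ± 0.01), nearly the same on both. Its neighbour Fads2 had opposite signs, at -0.18 and 0.16. Hsd17b12, a reductase of fatty acid elongation, stood at -0.46 and -0.23, and Elovl6, the elongase of saturated acids, at 0.77 and 0.23.

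Cholesterol synthesis and uptake had 8 of 21 measured genes above control on both arrays and 4 below, where 22% of all genes lay above and 22.9% below. Its median of 0.008 became -0.045 with the local median removed, and read as Cy5 over Cy3 it would have 3 above and 6 below. Msmo1, a sterol demethylating oxidase, stood highest, at 0.09 and 0.38. Of 14 genes of cholesterol efflux, 3 were above and 5 below: Apoe, which carries lipids out of macrophages, stood at -0.43 and -0.23, and Abca1, the exporter of cholesterol, at -0.055 and -0.075. Star, which moves cholesterol into mitochondria, was the highest there, at 0.16 and 0.56 (0.36 ± 0.20). Glucose uptake, glycolysis and pyruvate oxidation had 10 of 28 above and 4 below, with a median of 0.082, against the same shares over all genes. Read as Cy5 over Cy3 that list would have 7 above and 7 below, with a median of 0.0085. Pkm, pyruvate kinase of muscle, stood at 0.37 and 0.44, just under 1.3-fold on array 1, and Slc16a3, a lactate exporter, at 0.59 and 0.17.

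Dhrs3 was joined by Cyp26b1, which degrades retinoic acid, at 1.13 on array 1 and 0.33 on array 2, and by Lrat, which esterifies retinol, at 0.34 and 0.16. Both remove retinoids from the active pool, but Cyp26a1 had opposite signs, at 0.36 and -0.11, and the retinoic acid receptor Rarb stood at -0.18 and 0.016. Over the 19 measured genes of retinoid and steroid metabolism 4 were above control on both arrays and 4 below, close to the shares over all genes. Hsd11b1, which regenerates active glucocorticoid from its inactive form, was at -0.47 on array 1 and -0.44 on array 2 (-0.45 ± 0.02), the closest pair among the genes lower by 1.3-fold.

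At 1.3-fold on both arrays, a threshold of 0.379, 17 genes (0.176%) were higher and 8 (0.0829%) lower. The widest gap among the higher genes was that of Alas1, the rate-limiting enzyme of heme synthesis outside red cells, at 1.26 on array 1 and 0.43 on array 2 (0.84 ± 0.41). Sparc, a collagen-binding protein of the matrix, was likewise uneven, at 0.44 and 0.93, as was Tgm2, tissue transglutaminase, at 0.43 and 0.71. More even were Irf2bpl, a nuclear regulator, at 0.61 and 0.53, Carmn, a long noncoding RNA of heart and smooth muscle, at 0.53 and 0.70, and Acap1, a regulator of Arf proteins, at 0.42 and 0.45. Angptl6, a secreted angiopoietin-like protein, had the closest pair, at 0.42 and 0.41. With quantile normalization Sparc, Tgm2, Acap1, Angptl6 and Cars1 came under 1.3-fold on array 1, and 12 of the 17 genes were kept.

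Removing the local median also changed calls. Cars1, the tRNA synthetase of cysteine, at 0.38 and 0.47, Map3k2, a kinase upstream of MAP kinases, at 0.47 and 0.70, Slc13a5, a citrate carrier, at 0.60 and 0.43, and Wdfy2, a protein of early endosomes, at 0.63 and 0.45, all lost the rule. Map3k2 also rested on probes that disagreed, with 0.49 and 1.25 for one and 0.45 and 0.15 for the other. The genes just outside were Cldn18, a tight junction protein, at 0.39 and 0.38, and Nrep, at 0.84 and 0.37. Cpt1a, Pkm, Nrep and Akap5, a kinase anchoring protein, met the rule only with the local median removed, so 13 of the 17 were kept and the count stayed at 17.

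**Figure D4:**
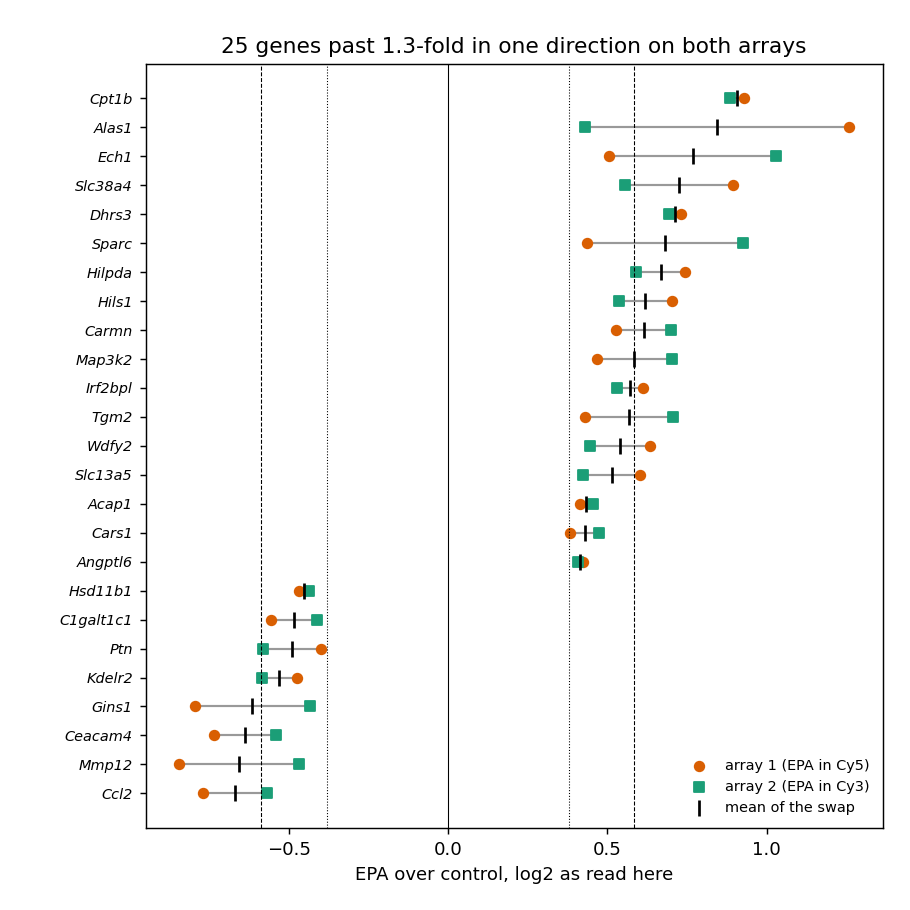
Log2 ratio of EPA over control (horizontal axis) for the 25 genes past 1.3-fold in the same direction on both arrays, 17 higher and 8 lower, on array 1 (circles) and array 2 (squares) with the mean of the swap (bar). Dashed lines mark 1.5-fold and dotted lines 1.3-fold; Cpt1b, Dhrs3 and Hilpda have both marks beyond 1.5-fold, and no lower gene does.

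The lower genes included a chemokine that recruits monocytes and the elastase of macrophages. Ccl2 stood at -0.77 on array 1 and -0.57 on array 2 (-0.67 ± 0.10), and Mmp12, macrophage elastase, at -0.84 and -0.47 (-0.66 ± 0.19). Both probes of Mmp12 were lower, at -0.80 and -0.44 for one and -0.89 and -0.49 for the other. The array 1 value of Ccl2 is one that 30 probes share, as described below. Its size and sign there are therefore uncertain, and with them its call and its rank. Ceacam4, a cell adhesion molecule of the carcinoembryonic antigen family, stood at -0.74 and -0.54. By swap mean these 3 were the lowest of all genes after Lyz2, the lysozyme of macrophages and neutrophils, at -1.19 on array 1 and -0.29 on array 2 (-0.74 ± 0.45), which missed the rule on array 2. The probes of Lyz2 were both lower but differed in size on array 1, with -0.73 and -0.36 for one and -1.66 and -0.22 for the other.

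Markers of macrophages and other leukocytes include Mmp12 and Lyz2. Of 20 measured, 9 (45.0%) lay below control on both arrays and 2 above, where 22.9% of all genes lay below and 22% above, with a median of -0.040 and swap means from -0.74 to 0.17. Fcgr2b, an Fc receptor, stood at -0.40 and -0.30, Ptprc, the common leukocyte antigen, at -0.18 and -0.24, Cd14 at -0.23 and -0.090, C1qb, a complement subunit, at -0.11 and -0.18, and Tyrobp, an adaptor of myeloid receptors, at -0.12 and -0.16. These are small differences. Cd74 and Cd163 also counted as below but lay close to control, at -0.019 and -0.0044 and at -0.022 and -0.071. The 2 above were Itgam, an integrin of myeloid cells, at 0.28 and 0.05, and C1qc, at 0.021 and 0.16. C1qc is another subunit of the complement molecule that holds C1qb. All other markers had opposite signs, namely Cd68, Mrc1, Csf1r, Fcgr3a, Adgre1, Laptm5, Ctss, Lgals3 and Spp1. Read as Cy5 over Cy3, 4 markers would be above and 5 below. The part of leukocyte content in the values of Ccl2 and Mmp12 was not tested, and in such mixed cultures fewer cells of a type and less RNA per cell cannot be told apart. Among 32 inflammatory mediators 9 lay below control on both arrays and 4 above, with a median of -0.048. Il6 stood at -0.25 and -0.27 and Il1b at -0.21 and -0.20, whereas Cxcl2 stood at 0.25 and 0.089 and Tnf had opposite signs. Ptgs2, the inducible prostaglandin synthase, stood at -0.081 and -0.10. Its probes disagreed, with 0.063 and -0.048 for one and -0.23 and -0.15 for the other.

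Of the remaining lower genes, Gins1, a subunit of the complex that opens DNA for replication, stood at -0.79 on array 1 and -0.43 on array 2, and both of its probes were lower. Of 34 measured genes of the cell cycle and DNA replication, 16 (47.1%) were below control on both arrays, where 22.9% of all genes were, and 5 above, with a median of -0.051. Read as Cy5 over Cy3, 7 would be above and 6 below, and removing the local median gave 17 below and 4 above. Pcna, the sliding clamp of DNA polymerase, stood at -0.65 and -0.20. The helicase subunits Mcm4 and Mcm5 stood at -0.20 and -0.44 and at -0.16 and -0.58, and with the local median removed Mcm4 met the 1.3-fold rule at -0.51 and -0.49. Mcm3, Rrm1, Rrm2 and Top2a, which also serve replication, had opposite signs. The 5 above were the inhibitors Cdkn1a, Cdkn2a and Cdkn2b, the cyclin Ccnd3 and the checkpoint kinase Bub1, with swap means up to 0.17, while the inhibitor Cdkn1b had opposite signs. Of the 3 probes of Cdkn1a, 1 was above control on both arrays. Fibroblast markers had 4 of 13 below and 2 above. Cell death and survival genes had 11 of 29 below and 5 above.

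Kdelr2, which returns proteins to the endoplasmic reticulum, stood at -0.47 and -0.58, and C1galt1c1, a chaperone of a glycosyltransferase, at -0.56 and -0.41, losing the 1.3-fold rule at -0.57 and -0.32 with the local median removed. Ptn, the growth factor pleiotrophin, stood at -0.40 and -0.58, and lost the rule with the arrays scaled to equal spread (-0.36 on array 1) and with quantile normalization (-0.33). Matrix genes spread to both sides, with 8 of 34 above control on both arrays and 11 below. Beside Sparc, Fbn1, a fibrillin, stood at 0.25 and 0.50, while Grem1, an antagonist of bone morphogenetic proteins, stood at -0.30 and -0.66. Of the small proteoglycans, Lum stood at -0.37 and -0.34 and Dcn at -0.29 and -0.28. Once the local median was removed Dcn was no longer even, at -0.54 and -0.22, and Lum stood at -0.28 and -0.39. Fbn1 then stood at 0.058 and 0.56.

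Lists of contractile genes had members on both sides. Cardiomyocyte markers had 5 of 14 measured above control on both arrays and 2 below, with a median of 0.088, and swap means from -0.37 to 0.32. The sarcomere list had 5 of 20 on either side. Actn2, an actinin of the Z disc, stood at 0.20 and 0.38, or at 0.016 and 0.39 with the local median removed. Myh6, the alpha myosin heavy chain, stood at 0.05 and 0.18, and Myl7, the atrial light chain, at -0.49 and -0.28. Pdlim5, another Z disc protein, was high mainly on array 1, at 1.48 and 0.32, the third highest swap mean of all genes, and Csrp3, a muscle LIM protein, was low there, at -0.69 and -0.051. Calcium handling had 5 of 26 on either side, or 3 above and 7 below with the local median removed. Ryr2, the calcium release channel, stood at -0.29 and -0.26 and Casq2, which stores calcium beside it, at 0.24 and 0.23. Once the local median was removed Casq2 lay near control on array 1, at 0.008 and 0.26, and Ryr2 stood at -0.25 and -0.17. Of 21 genes of voltage-gated channels and gap junctions 3 were above and 6 below, and Gjc1, a connexin, stood at -0.25 and -0.38. Nppa and Nppb, natriuretic peptides that rise with hypertrophy, stood at -0.22 and 0.042 and at -0.52 and -0.024. In the hypertrophy list 1 of 17 was above on both arrays and 4 below.

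The antioxidant and heat shock lists did not lean. The antioxidant list had 8 of 34 above control on both arrays and 8 below, and Hmox1, heme oxygenase, stood at 0.30 and -0.063. Heat shock proteins had 4 of 21 on either side. The unfolded protein and amino acid response had 6 of 19 (31.6%) above and 3 (15.8%) below, where 22% of all genes lay above and 22.9% below. With the local median removed it had 7 above and 4 below, with a median of -0.0033. Read as Cy5 over Cy3 it would have 4 above and 6 below. Hypoxia targets other than Hilpda gave no common side, with 6 of 23 above, Hilpda included, and 4 below: Vegfa, a vascular growth factor, stood at 0.73 and 0.24, whereas Bnip3, a mitochondrial death factor, stood at -0.84 and -0.04 and Egln3, an oxygen-sensing hydroxylase, at -0.18 and -0.38. Eicosanoid genes had 8 of 28 above and 6 below, which became 4 above and 7 below with the local median removed. Ptgis, prostacyclin synthase, stood at 0.22 and 0.51, its array 1 value lying near 0 with the local median removed, and Cyp2j4, an epoxygenase of the family that also acts on EPA, at -0.30 and -0.39.

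**Figure D5:**
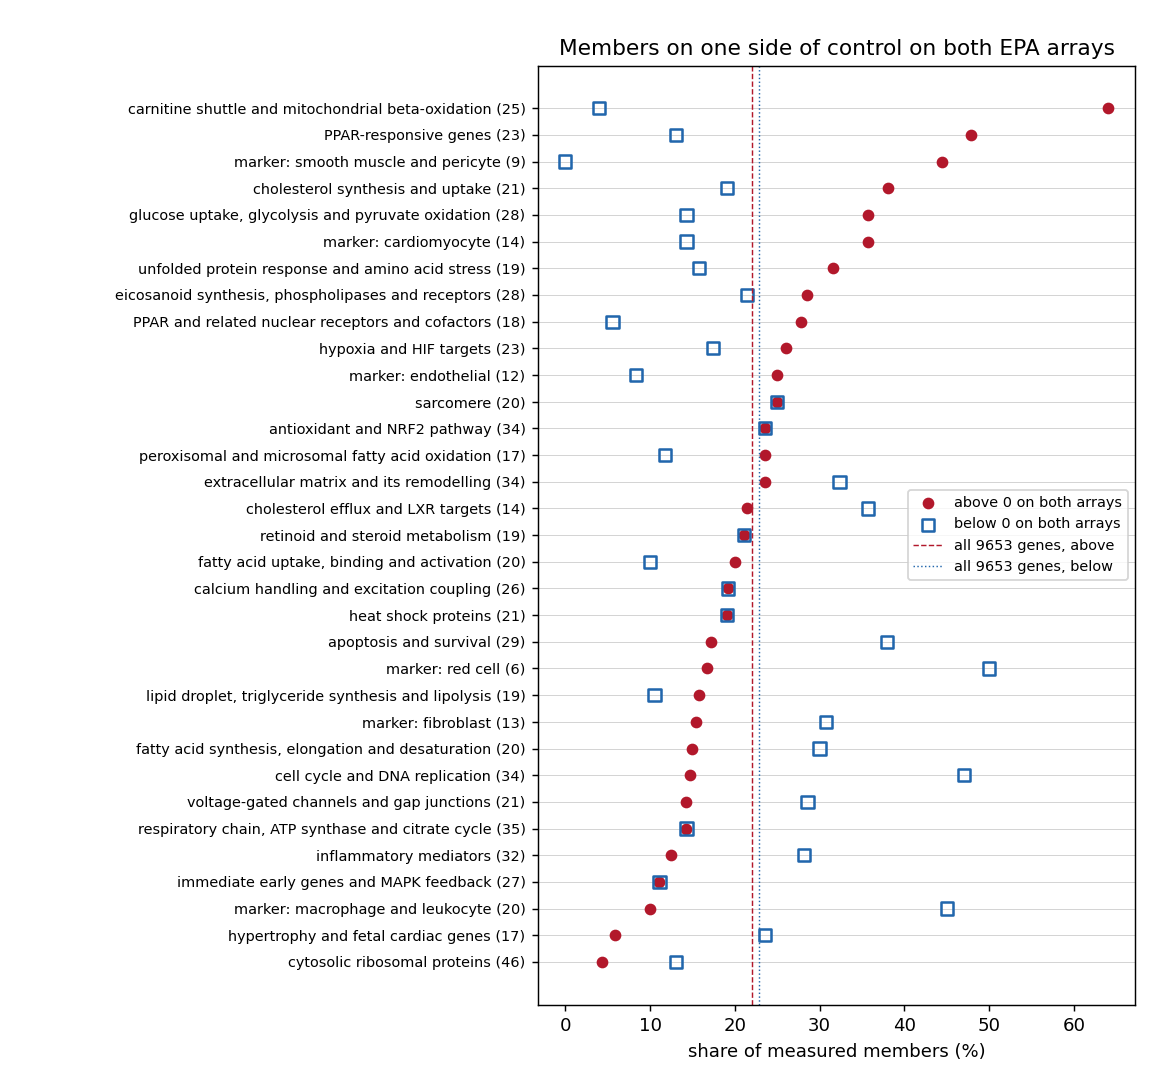
Share of the measured members of each gene list (horizontal axis, %; number measured in parentheses) that lay above control on both arrays (filled circles) or below it on both (open squares). Vertical lines give the shares over all 9653 genes, 22% above and 22.9% below; fatty acid oxidation stands farthest to the right at 64.0% above, and on the other side red cell markers (3 of 6), cell cycle (47.1%) and leukocyte markers (45.0%) have the largest shares below. All shares follow the assumed direction, and the lists were chosen with earlier results of these data known. Read as Cy5 over Cy3 oxidation would have 1 member above and 7 below.

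More genes had opposite signs on the arrays than a common direction. At 1.5-fold on both arrays 27 genes (0.28%) had opposite directions, all of them below control on array 1 and above on array 2, and at 1.3-fold 72 (0.746%) did, 63 (0.653%) of them below on array 1 and above on array 2 and 9 (0.0932%) the reverse. Of the 27, 16 encode ribosomal proteins, such as Rps12 at -0.77 and 1.67 and Rpl5 at -0.77 and 1.34, and the rest include the matrix and smooth muscle genes Fn1 at -0.77 and 1.88, Bgn at -0.77 and 1.71 and Tagln at -0.77 and 1.88. On array 1 the value -0.77 was shared by 30 probes within 0.0002, of which 29 lay above control on array 2, with a median there of 1.46. The exception was Ccl2. A shared value of this kind is not a measurement of each probe, and 17 of the 27 genes had such a probe. Of all 46 measured ribosomal protein genes 34 were below control on array 1 and above on array 2, with medians of -0.53 on array 1 and 0.43 on array 2. If the table ran Cy5 over Cy3, these 27 genes would be the ones lower with EPA at 1.5-fold and none would be higher.

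Smooth muscle markers were split by the same pattern, with 4 of 9 above control on both arrays, 0 below and medians of -0.13 on array 1 and 0.24 on array 2. Immediate early genes ran the opposite way. Of 27 measured, 16 were above control on array 1 and below on array 2, with medians of 0.13 and -0.18. Read as Cy5 over Cy3, those 16 would lie above on both arrays and 5 below, with a median of 0.11. On that reading 26.8% of all genes would be above and 28.3% below. Egr1, a zinc finger factor induced by growth signals, stood at 0.46 and -0.98, Nr4a3, an orphan nuclear receptor, at 0.56 and -0.77, and Dusp6, which switches off ERK, at 0.43 and -0.61. All 3 belong to the 9 genes with this order of signs at 1.3-fold, and no side relative to control can be given for them. Those with a common side were few, with 3 above and 3 below, Myc standing at 0.25 and 0.14 and Ier3 at -0.32 and -0.49.

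Probes that could not be named held larger differences than the named genes. Of 7750 such probes, 4 (0.0516%) passed 1.5-fold upwards on both arrays and 0 (0%) downwards. Feature 16808 stood at 1.57 on array 1 and 4.12 on array 2, and feature 12385 at 0.97 and 1.84. Features 19025 and 8476 were more even, the first at 0.73 and 0.77 and the other at 0.66 and 0.63. At 1.3-fold 25 (0.323%) were higher and 7 (0.0903%) lower, while 13 (0.168%) at 1.5-fold and 32 (0.413%) at 1.3-fold had opposite directions.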

How the data were processed

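RNA ratios of EPA over control cells were measured on 2 of the 4 arrays, for which the authors deposited 1 value per feature, taken here to be a log2 ratio. Expression ratios were assessed from amplified cRNA, per the labels' protocols; correction and normalization of the scans, and the ratio's base and direction, were not given in the sources used here. All deposited columns were mapped to samples (0 were not). Spot intensities were not used, so dim probes could not be left out, and the number of arrays limits the precision.

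Each EPA array was centred on its median (0.0024 on array 1 and -0.0084 on array 2 as deposited). Features without a value (2075) were left out. The platform's annotation named the probes, and a RefSeq table of GRCr8 gave current symbols: 12750 had 1 symbol, 5 several and 7745 were unlisted, 12720 were found by ID and 35 kept their old one. The mean was taken where a gene had several probes (2266 genes), with a median range between probes of 0.13. A swap counts as 1 sample, so no test was made. The 33 gene lists (697 of 891 genes measured) and the genes named were chosen with earlier results of these data known. Named were all genes past 1.5-fold, up to 20 per direction past 1.3-fold, up to 5 with opposite signs, the 3 highest and 3 lowest same-sign members of each list and a fixed set of lipid and stress genes; further members are named to describe a list and were chosen after their values were seen. Alternatives covered centring, scaling, quantile normalization, position, probe choice, repeated values, log base, direction and single arrays. Python 3.11.15, pandas 2.3.3, numpy 2.4.6 and matplotlib 3.10.9 were used, and counting was tested on simulated data.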

Additional observations from a re-analysis of the deposited data

How the results depend on the processing

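No paired analysis was possible because no result comes from a test. The count of 3 genes higher at 1.5-fold became 5 with arrays scaled to equal spread and 5 with quantile normalization, 4 with a local median on the inferred grid removed, 7 with every probe counted, 229 read as log10 ratios and 0 read as Cy5 over Cy3; single arrays gave 72 to 168. Without centring it was 2, Hilpda ending at 0.58 on array 2. The count of 0 lower became 2 (scaled), 3 (quantile), 248 (log10) and 27 (Cy5 over Cy3), and 11 to 139 on single arrays. At 1.3-fold the 17 higher became 53 with every probe, 26 with the first probe of each gene, 513 (log10) and 9 (Cy5 over Cy3), and 266 to 570 on single arrays. The 8 lower became 13 without centring, 13 scaled, 16 with quantile normalization, 24 with every probe, 573 (log10) and 63 (Cy5 over Cy3), and 93 to 532 on single arrays. Removing a local median on the inferred grid, an alternative chosen after seeing the data, gave 16 lower and kept 7 of the 8. Without probes of a repeated value 7 were lower, Ccl2 being lost, and genes of opposite sign numbered 11 instead of 27; they numbered 47 with every probe, 646 (log10) and 3 (Cy5 over Cy3). Read as Cy5 over Cy3 the swap mean changed sign for 88 of 208 named genes, among them Cpt1a (-0.36), Plin2 (-0.22), Ucp3 (-0.18), Star (-0.20) and, of the 25 genes past 1.3-fold, Acap1 (-0.019), Carmn (-0.086), Cars1 (-0.045), Ech1 (-0.26), Kdelr2 (0.056), Map3k2 (-0.12), Ptn (0.092), Sparc (-0.24) and Tgm2 (-0.14). The cause of these changes was not tested beyond what each alternative does. Of 208 named genes, 167 moved by less than 1 SD of their 2 arrays with the local median removed, 198 with quantile normalization and 178 with a running median in deposited order removed; for the 33 lists the numbers were 23, 26 and 25.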

Other observations

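Among named genes 18 reached 2-fold on 1 array and stayed under 1.3-fold on the other, 13 on array 1 and 5 on array 2. Cpg1 had the highest swap mean of all genes, at 0.11 on array 1 and 2.80 on array 2. Slc6a6, the taurine transporter, stood at 1.53 and 0.16, and Sftpc, a lung surfactant protein, at 1.36 and 0.14. Lox, which crosslinks collagen, stood at -1.01 and -0.04, and Cav1, the caveolar coat protein, at -1.04 and -0.19. The size of these differences rests on a single labelling.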
